A study of Mus musculus with 58 samples.

Results

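The 6 genes described here mark the cells of the blood vessel wall in mouse brain: von Willebrand factor (Vwf), platelet and endothelial cell adhesion molecule 1 (Pecam1), the vascular endothelial cadherin (Cdh5), claudin 5 (Cldn5), the VEGF receptor Flt1 and the PDGF receptor beta (Pdgfrb). They were chosen by name as rows of the deposited count table, and all 6 were found among its 9636 genes. None was lost to a filter on low counts, since the smallest count of any of them in a library was 292 and the edgeR filter removed no gene. They were followed over 58 libraries of somatosensory cortex, 35 from females and 23 from males, of the strain C57BL/6J.

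The study asked how repeated mild head injury, and inhibition of the stress-activated kinase p38 MAPK after it, affect the brain. Mice aged 2 to 4 months received 5 closed head injuries, 1 a day (5xCHI), or 5 sham procedures. An injection into the peritoneum followed each procedure after 30 min, of either SB239063 (SB), an inhibitor of p38 MAPK, at 20 mg/kg, or saline alone as vehicle. All 58 libraries carry the chronic label, which stands for about 18 or 34 days after the last injury, and the labels do not assign animals to a day. Of the female libraries 11 were from injured mice given SB, 12 from injured mice given vehicle, 3 from sham mice given SB and 9 from sham mice given vehicle. The male libraries numbered 8, 8, 2 and 5 in the same order. The labels place the mice in 8 cohorts, F1 to F4 for females and M1 to M4 for males. Every cohort held injured mice with both treatments and sham mice with vehicle, whereas sham mice with SB came from F1, F2, M1 and M2. Nothing in the labels says whether the libraries came from separate animals, so p-values measure the spread between these libraries.

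Endothelial cells line the vessels, and in the brain they are sealed by tight junctions that form the blood-brain barrier. Pericytes sit on the outer face of capillaries within a shared basement membrane. They are recruited through PDGF-B released by the endothelium, which Pdgfrb on the pericyte binds. Cldn5 is the main claudin of the barrier's tight junctions, and Cdh5 and Pecam1 hold neighbouring endothelial cells together at other contacts. Vwf is stored in endothelial granules, binds platelets at sites of vessel damage, and is more abundant in veins and larger vessels than in capillaries. Flt1 binds VEGF and, in its soluble form, acts as a decoy for it. Endothelial genes are commonly driven by transcription factors of the ETS family, which bind a GGAA core.

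RefSeq promoter sequences were at hand for Flt1 and Cldn5, the pair of members that later stood furthest apart in how they varied with transcript length (build GRCm38.p6, whereas the counts were made on GRCm39). The 250 bases before each start site are shown 5′ to 3′ on the gene's own strand, at chr5:147726012-147726261 on the minus strand for Flt1 and at chr16:18776597-18776846 on the plus strand for Cldn5. Capitals mark GGAA.
Flt1: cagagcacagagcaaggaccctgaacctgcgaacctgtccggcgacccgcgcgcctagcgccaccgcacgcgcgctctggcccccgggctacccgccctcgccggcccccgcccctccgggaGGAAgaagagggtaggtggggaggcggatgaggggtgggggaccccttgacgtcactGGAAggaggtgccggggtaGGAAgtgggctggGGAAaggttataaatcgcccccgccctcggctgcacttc
Cldn5: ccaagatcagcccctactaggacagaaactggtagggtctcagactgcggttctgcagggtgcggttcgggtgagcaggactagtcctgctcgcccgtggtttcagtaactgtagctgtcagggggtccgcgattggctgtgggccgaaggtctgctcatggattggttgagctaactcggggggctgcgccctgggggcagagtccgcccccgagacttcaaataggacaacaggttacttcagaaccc

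Counting both strands, the Flt1 window held GGAA at 4 places and the Cldn5 window at 0. GGAA was present in 93.4% of 32851 RefSeq promoter windows of the same length, with a median of 3 matches. The FOX:ETS motif AACAGGAA, which contains GGAA, was in neither window and in 2.25% of all windows. The GC box GGGCGG occurred 3 times for Flt1 and once for Cldn5, and in 32.7% of all windows. TATAAA occurred in the Flt1 window, starting 31 bases before the start site, was absent from the Cldn5 window and stood in 12.4% of all windows. The GC content was 70.4% for Flt1 and 59.6% for Cldn5, against a median of 52.4%. These are matches of letters only.

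The libraries held between 28316280 and 49158277 counts in the listed genes. The biological coefficient of variation of the members was 11.8% (Flt1) to 23.4% (Vwf), and counting error at the lowest count of each was 2.28% (Flt1) to 5.85% (Cdh5). The defining markers of red blood cells (5 genes) and choroid plexus (7 genes) were not analysed here, because none is among the table's genes. Markers of neighbouring cells were measured: 12 of 12 for myelin, 12 of 12 for astrocyte endfeet and 9 of 11 for microglia. Measured too were 10 of 10 for cortical excitatory neurons, 4 of 7 for striatum and 3 of 11 for perivascular fibroblasts and meninges. On the first 5 principal components 4 libraries lay far from the rest: injured SB female 8 (cohort F4), sham vehicle female 1 (F2), sham vehicle female 7 (F3) and sham vehicle male 2 (M3).

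Levels are given as CPM, that is, counts scaled to a common library size, here with TMM factors. Over all 58 libraries Vwf stood at 22.6 ± 7.97 CPM (SD, n = 58), with a range of 10.6 to 51.7. The junction genes Pecam1 and Cdh5 stood at 21.8 ± 3.60 CPM and 15.8 ± 2.81 CPM, and Cldn5 at 25.0 ± 6.25 CPM. Flt1 reached 77.4 ± 9.48 CPM and Pdgfrb 27.8 ± 4.42 CPM. Vwf was therefore the member that varied most between libraries, with a coefficient of variation of 35.2%, against 12.2% for Flt1. In bulk tissue a lower value can come from fewer cells of a type or from less RNA per cell, and these cannot be told apart.

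Per kilobase of merged exonic sequence (GENCODE vM21) the order of the levels was different. Cldn5, whose exons span 1416 bases, came first at 17.6 ± 4.41 CPM per kb (SD, n = 58) and exceeded Flt1 in 58 of 58 libraries. Flt1 followed at 5.73 ± 0.702 CPM per kb and lay above Pdgfrb, at 5.07 ± 0.807, in 47 of 58. Pdgfrb exceeded Cdh5, at 3.77 ± 0.668 CPM per kb, in 57 of 58 libraries. Cdh5 exceeded Pecam1, at 3.50 ± 0.578, in 39 of 58, so these neighbours in the order overlapped. Vwf, with 16064 exonic bases, was last at 1.41 ± 0.496 CPM per kb and lay below Pecam1 in every library.

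The cohort, not the injury or the drug, accounted for most of the explained spread of these genes. As shares of the total sum of squares of log2 CPM, the cohort within sex took 47.9% for Vwf, 41.7% for Pdgfrb and 33.6% for Cdh5, against a median of 22.9% over all genes. The shares were 21.0% for Pecam1, 18.0% for Cldn5 and 15.5% for Flt1, below that median. Injury and treatment beyond the cohort took 5.24% (Cldn5) to 11.7% (Pdgfrb), and the median gene had 7.36%. No test was made of these shares. The cohorts were then compared within each sex in the edgeR model, a comparison that covers whatever the cohort label stands for. Whether the days after injury fell along the cohorts is not in the labels, so cohort and time after injury cannot be told apart.

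Among females Vwf was low in cohort F2. Its 6 libraries there ran from 10.6 to 15.6 CPM with a median of 11.6, and the mean was 12.5 ± 2.24 CPM (SD, n = 6). The other 29 female libraries ran from 13.8 to 51.7 CPM with a median of 24.7. Each of the other cohorts had a higher mean: 24.3 ± 5.78 CPM in F1 (n = 10), 29.7 ± 9.99 in F3 (n = 14) and 22.8 ± 5.81 in F4 (n = 5). Of the F2 libraries 4 lay below every other female library, and 2 of the 29 others, sham vehicle female 4 of F3 and injured vehicle female 5 of F4, lay below the highest F2 value. Of all genes 2 (0.0208%) had every F2 library below every other female library, and no member was among them. Low values occurred in F2 under every condition: 11.4 and 10.7 CPM in injured SB mice, 10.6 and 15.6 in injured vehicle mice, 15.0 in the sham SB library and 11.8 in the sham vehicle library.

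**Figure D1:**
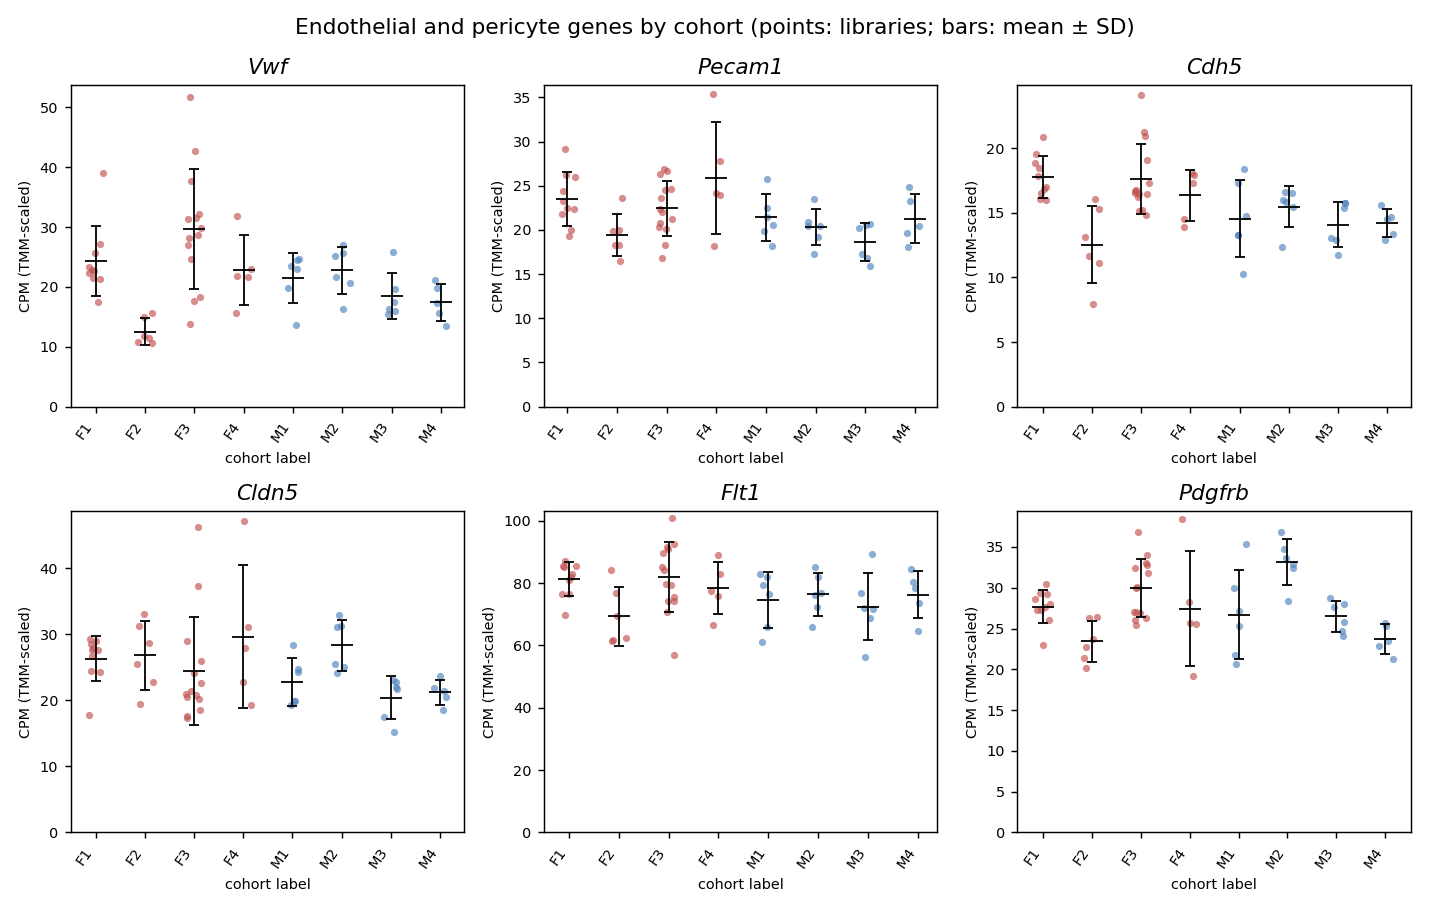
Level of each gene (vertical axis, TMM-scaled CPM, starting at 0) by cohort label (horizontal axis), with females F1 to F4 in red and males M1 to M4 in blue. Points are libraries and bars are the mean ± SD; the Vwf points of F2 sit between 10.6 and 15.6 CPM, and Pdgfrb is highest in M2 at 33.2 CPM.

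In the fit, Vwf spanned 1.25 on the log2 scale from F2 to F3 (adjusted p = 7.65e-06, edgeR quasi-likelihood test with Benjamini-Hochberg adjustment over all genes). The fitted F2 level lay 1.04 (log2) below the mean of F1, F3 and F4, a fold of 0.486. Ranked by that difference, Vwf was number 1 of 9636 from the negative end, a rank looked up after the Vwf values were seen. Without the 4 far libraries the Vwf range was 1.24 (adjusted p = 4.96e-05). It passed the threshold with each library left out in turn.

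Cdh5 and Pecam1, the junction genes of endothelial cells, followed Vwf with smaller ranges. Cdh5 ran from 7.96 to 16.0 CPM with a median of 12.4 in the 6 F2 libraries and from 13.9 to 24.1 with a median of 16.8 in the other 29 females. Here too 4 F2 libraries lay below every other female, and the fitted range was 0.52 (log2, adjusted p = 5.39e-04 by edgeR). Pecam1 ran from 16.5 to 23.6 CPM with a median of 19.1 in F2 and from 16.8 to 35.4 with a median of 23.3 in the other females, with 15 of the 29 below the highest F2 value. Its range was 0.43 (adjusted p = 0.0202 by edgeR) and reached from F2 to F4. That call rested on few libraries: it was lost without injured SB female 7 (adjusted p = 0.0509), injured SB female 8 (0.0786) or injured vehicle female 9 (0.0627). Leaving out the 4 far libraries also lost it (adjusted p = 0.0804 by edgeR), as did a block for the replicate number (0.141).

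Pdgfrb, the pericyte receptor, ran from 20.1 to 26.4 CPM with a median of 23.2 in F2 and from 19.1 to 38.5 with a median of 28.0 in the other females. The groups overlapped, and the range of 0.38 passed the threshold (adjusted p = 0.00507 by edgeR). With the replicate number as a block in the model that call was lost (adjusted p = 0.065 by edgeR). Flt1 ran from 61.3 to 84.1 CPM with a median of 66.0 in F2, against 56.8 to 101 with a median of 82.0, and its range of 0.24 did not pass (adjusted p = 0.0741). It passed without injured vehicle female 6 (adjusted p = 0.0239) or injured vehicle female 10 (0.0127). Cldn5 was not lower in F2, where it had a median of 27.1 CPM (19.4 to 33.0), against 24.4 CPM (17.4 to 47.1) in the other females. The Cldn5 range of 0.27 did not pass (adjusted p = 0.468). Without sham vehicle female 7, which had 46.2 CPM of Cldn5, it passed at 0.40 (adjusted p = 0.0475 by edgeR). Without all 4 far libraries, which include that one and injured SB female 8 with 47.1 CPM, it did not pass.

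Hence 4 of the 6 members differed between female cohorts, beside 50.0% of all genes, so the number of calls as such was near the background. The direction was less common. F2 was the lowest cohort for 5 of the 6, beside 16.7% of all genes, and 4 of 6 were called with F2 lowest, beside 6.98%. These counts by cohort F2 were made after its values had been seen. Without cohort F2, an alternative chosen after seeing the data, 0 of 6 members passed, beside 46.1% of all genes (4441), with adjusted p of 0.174 for Vwf, 0.180 for Pecam1, 0.659 for Cdh5 and 0.300 for Pdgfrb.

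Other genes of the vessel wall were read from lists of the same pathway. Of the endothelial identity list 14 of 30 genes were measured, 13 differed between female cohorts, and all 13 had F2 as the lowest cohort. Of all genes 50.0% differed, and 6.98% did so with F2 lowest. A call covers any difference among the 4 cohorts, not that of F2 alone. F2 lay close to F1 for Cd34 (-0.0071, log2, F2 minus F1), Esam (-0.046), Itm2a (-0.072) and Slco1a4 (-0.10). The phosphatase that associates with vascular cadherin, Ptprb, lay 0.56 (log2) below the other female cohorts in F2, and the angiopoietin receptor Tek 0.46 below. The fitted differences were -0.48 for the sialomucin gene Podxl, -0.47 for the adhesion receptor gene Adgrf5, -0.47 for Ly6c1, -0.45 for Ly6a and -0.43 for the TGF-beta co-receptor endoglin (Eng). They were -0.41 for the organic anion transporter gene Slco1a4, -0.41 for the phospholipid transfer gene Pltp, -0.34 for Adgrl4, -0.27 for Itm2a, -0.19 for the junction gene Esam and -0.18 for Cd34. Egfl7, at -0.16, did not pass (adjusted p = 0.0989). The median of the 14 was -0.42, against 0.0013 over all genes.

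Barrier genes gave a mixed picture. Of 24 junction and transporter genes 17 were measured and 12 differed, 8 of them with F2 lowest. The shares over all genes were 50.0% and 6.98%. The efflux pump gene Abcb1a (-0.50, log2, F2 minus the other female cohorts), the lipid transporter gene Mfsd2a (-0.43), the efflux genes Abcg2 (-0.39) and Abcc4 (-0.36), the glucose transporter gene Slc2a1 (-0.38), the caveolar coat gene Cavin1 (-0.44), the amino acid transporter gene Slc7a5 (-0.19) and the insulin receptor gene Insr (-0.17) were called and lower in F2. The monocarboxylate transporter gene Slc16a1 was called and higher there (0.31). F4 was nearly as low as F2 for Mfsd2a (F4 -0.53, F2 -0.58, log2 relative to F1) and for Slc7a5 (F4 -0.16, F2 -0.20). Tjp1, Jam2 and Lrp8 were called with differences of -0.10, -0.089 and -0.054. In the Wnt pathway that maintains the barrier, 3 of 6 measured genes were called, near the 50.0% of all genes. All were lowest in F2: the co-receptor genes Adgra2 (-0.57) and Reck (-0.29) and the target Apcdd1 (-0.40).

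Mural cell genes differed less uniformly. Beside each list count below stand the 50.0% of all genes that were called and the 6.98% called with F2 lowest. Of 6 measured pericyte genes 5 were called: Atp13a5 (-0.39, F2 minus the other female cohorts), Rgs5 (-0.15), Vtn (-0.15) and Zic1 (-0.85) were lower in F2, and the adhesion gene Mcam was higher (0.70). For Rgs5 and Vtn F2 lay close to F1 (-0.060 and -0.024, log2, F2 minus F1). Both measured smooth muscle genes, Myl9 (-0.42) and Mylk (-0.30), were called with F2 lowest. The anticoagulant receptor gene Thbd (-0.77) and the leukocyte adhesion gene Vcam1 (-0.21) were the 2 of 5 called among activation genes. In the basement membrane 9 of 15 were called, 5 with F2 lowest, led by fibronectin (Fn1, -0.91) and perlecan (Hspg2, -0.62), followed by the laminin chains Lama5 (-0.53), Lamb2 (-0.40) and Lama4 (-0.36), with Dag1 at -0.23, Col4a1 at -0.17, Lamc1 at -0.087 and Lama2 at -0.035. Among ligands and receptors of the VEGF and PDGF families 5 of 10 were called, none with F2 lowest: Pdgfb, the ligand of Pdgfrb, at -0.13, Pdgfra at -0.11, Epas1 at -0.16, Pdgfa at 0.23 and Apln at 0.26. Of 6 Notch genes Rbpj (-0.078) and Unc5b (0.57) were called. The calls among VEGF and PDGF genes were thus near the share of all genes, and those among activation and Notch genes below it. Without cohort F2, 7 of the 14 endothelial identity genes passed, near the 46.1% of all genes.

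**Figure D2:**
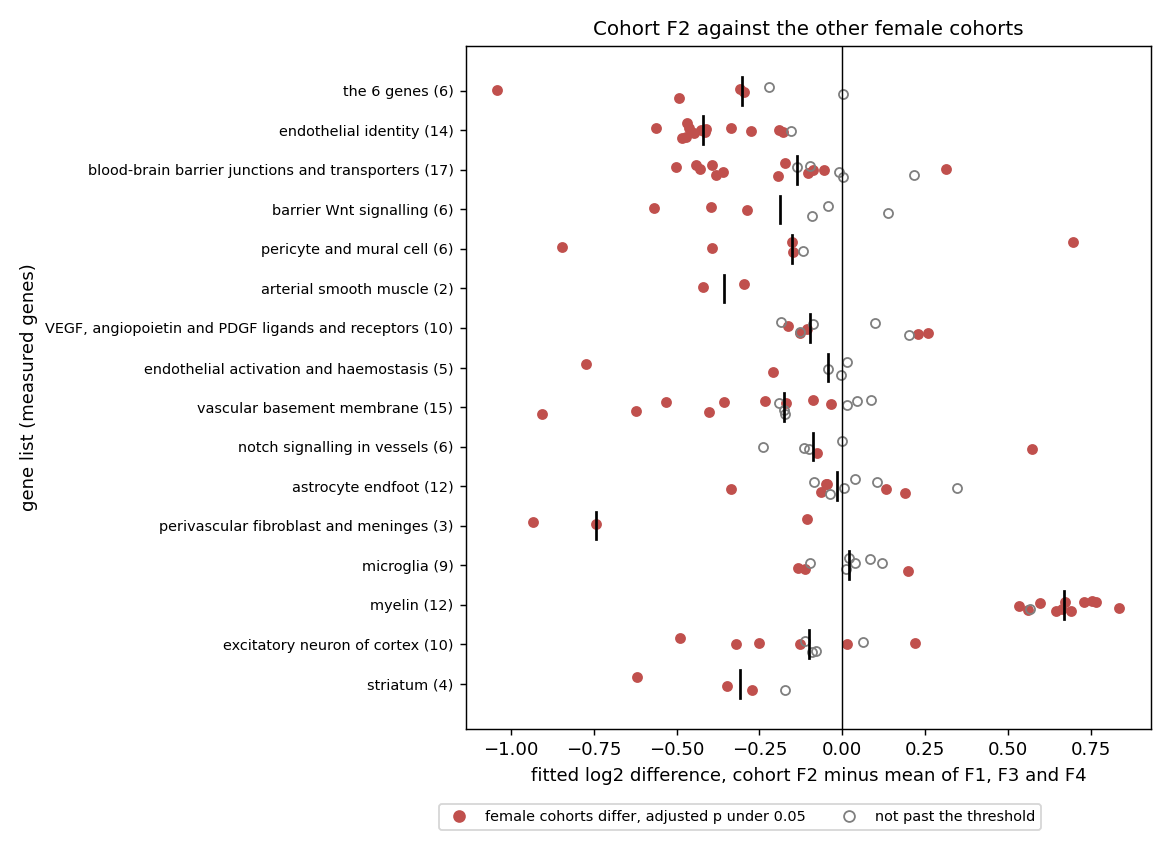
Fitted log2 difference of cohort F2 from the mean of the other female cohorts (horizontal axis) for every measured gene of each list (rows, number measured in brackets). Filled red points differ between female cohorts at an adjusted p under 0.05, open points do not, and black bars are medians; all 14 endothelial identity genes lie left of 0 and all 12 myelin genes right of it.

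Other markers moved with cohort F2. All 12 myelin genes were higher there, with a median of 0.67 (log2), and their summed level ran from 7440 to 21260 CPM in F2, against 3096 to 9882 CPM over the other female cohorts. The top of the F2 range was reached by 1 library. All 3 measured genes for perivascular fibroblasts and meninges, taken as 1 list, were lower (median -0.74). They were Col1a2 at -0.93, Ptgds at -0.74 and Pdgfra, also in the PDGF list, at -0.11. Their summed level was 304 to 666 CPM in F2 against 455 to 1092 CPM over the other female cohorts. The 4 measured striatal genes were lower (median -0.31). Astrocyte endfoot, microglia and excitatory neuron lists had medians of -0.015, 0.019 and -0.10. The F2 difference of 9542 genes (genes are no replicates of each other) followed exonic length with a Spearman rho of -0.338. Vwf has the longest exonic sequence of the 6 members and Cldn5 the shortest. The F2 differences of the others were not in the order of length: -0.22 for Flt1 (13504 bases), -0.31 for Pecam1 (6228), -0.30 for Pdgfrb (5478) and -0.49 for Cdh5 (4203). The part of these markers and of length in the result was not tested.

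Among males Pdgfrb was the 1 member of 6 that differed between cohorts, beside 3.83% of all genes. Its 6 libraries of M2 ran from 28.4 to 36.9 CPM with a median of 33.3, and the 5 of M4 from 21.2 to 25.7 CPM. M2 and M4, the cohorts of highest and lowest mean, thus did not overlap. Both were overlapped by M1 (20.6 to 35.4 CPM) and by M3 (24.1 to 28.7 CPM). The means were 33.2 ± 2.81 CPM in M2, 26.7 ± 5.48 in M1, 26.5 ± 1.88 in M3 and 23.7 ± 1.82 in M4, and the fitted range was 0.49 (log2, adjusted p = 0.0221 by edgeR). The call was lost without any 1 of 5 libraries: injured SB male 1, 2 or 6 (adjusted p = 0.0553, 0.0575 and 0.0938) and sham vehicle male 1 or 3 (0.0566 and 0.0756). Pdgfrb was thus called in both sexes, as were 3.37% of all genes.

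Cldn5 was also highest in M2, at 28.3 ± 3.83 CPM (SD, n = 6), against 22.7 ± 3.65 in M1, 20.4 ± 3.24 in M3 and 21.2 ± 1.90 in M4. Its range of 0.50 did not pass (adjusted p = 0.226). It passed without the 4 far libraries, at 0.55 (adjusted p = 0.0256 by edgeR). In that setting 1258 of 9636 genes were called between male cohorts, against 369 with all libraries. The other 4 members had ranges of 0.36 (Vwf), 0.21 (Pecam1), 0.12 (Cdh5) and 0.065 (Flt1), with adjusted p of 0.579 to 0.964. M2 was the highest cohort for 4 of the 6, beside 29.6% of all genes, and 1 of 6 was called with M2 highest, beside 1.41%. The 4 measured striatal genes were higher in M2 than in the other male cohorts (median 0.77, log2). Their summed level in M2 was 332 ± 289 CPM (SD, n = 6), and 1 injured SB library reached 902 CPM. The part of the striatal genes in the result was not tested. Of the 81 measured genes of the 9 vascular lists 3 (3.70%) were called in males, near the 3.83% of all genes: Ly6a, Ly6c1 and Slc16a1. The Slc16a1 call was lost with RLE size factors (adjusted p = 0.0511), the filter at a mean count of 1000 (0.0677), the replicate block (0.149) and 23 of the 58 omissions of a single library, and that of Ly6c1 with the block (0.0573). Without injured SB male 5, injured SB male 6 or sham vehicle male 1, Ly6a had an adjusted p of 0.0671, 0.0543 or 0.0746 and Ly6c1 of 0.0722, 0.0728 or 0.104.

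Males and females were compared over the 8 cohort means, since each cohort held 1 sex. All 6 members had lower fitted means in males, so that 0 of 6 were higher in sign, beside 52.9% of all genes. Since the members covary between libraries, these signs are not independent. By limma 0 of 6 passed, as did 0% of all genes, and 0 of 6 had an unadjusted p under 0.05, beside 3.04%. The log2 differences, male minus female, were -0.22 ± 0.11 (SE) for Cldn5, -0.15 ± 0.098 for Pecam1, -0.13 ± 0.13 for Cdh5, -0.087 ± 0.23 for Vwf, -0.053 ± 0.072 for Flt1 and -0.0015 ± 0.12 for Pdgfrb. The interval for Cldn5 ran from -0.47 to 0.038. The signs of Vwf and Pdgfrb turned when single cohorts were left out.

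Injury was compared with sham in vehicle mice to ask whether vessel genes still differed weeks after repeated head injury. No member differed, and the estimates were small. Vwf ran from 10.6 to 39.0 CPM with a median of 19.8 in the 20 libraries of injured vehicle mice, and from 11.8 to 37.7 CPM with a median of 21.5 in the 14 of sham vehicle mice. The groups overlapped almost fully, and the fitted log2 fold change was 0.015 ± 0.12 (SE). Pdgfrb had the largest estimate of the 6, 0.11 ± 0.064 (unadjusted p = 0.0784). It ran from 21.4 to 36.8 CPM with a median of 27.1 in injured mice, and from 19.1 to 33.7 with a median of 25.1 in sham mice. Within cohorts injured mice had the higher Pdgfrb mean in 7 of 8.

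The remaining members had fold changes of 0.020 ± 0.073 (Pecam1), 0.044 ± 0.077 (Cdh5), 0.060 ± 0.11 (Cldn5) and 0.050 ± 0.061 (Flt1). By edgeR 0 of 6 members and 0 of 9636 genes passed (0% of all genes, every adjusted p at 1 after rounding). At an unadjusted p under 0.05 edgeR counted 169 genes (1.75%) and 0 members, and DESeq2 counted 0 adjusted and 182 unadjusted genes. The 95% intervals bound what may have been missed: at most 0.27 for Vwf, 0.29 for Cldn5, 0.24 for Pdgfrb, 0.20 for Cdh5, 0.17 for Flt1 and 0.17 for Pecam1 upward, and 0.24 downward in the case of Vwf. All 6 estimates were positive, beside 49.4% of all genes, but the members covary between libraries and are not independent. Vwf turned negative under 8 of the 58 omissions of a single library, Pecam1 under 3 and Cdh5 under 1.

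In the sexes taken apart, injury gave Vwf -0.0068 ± 0.20 (SE) in males and 0.037 ± 0.15 in females. Flt1 was at 0.12 ± 0.097 in males and at -0.023 ± 0.075 in females. Pdgfrb was at 0.12 ± 0.10 and 0.11 ± 0.078. In neither sex did a member or any gene pass (edgeR, with 342 genes in males and 303 in females at an unadjusted p under 0.05, and 0 adjusted by DESeq2). The edgeR test of the difference between the sexes called 0 of 6 members and 0 of all genes (591 genes at an unadjusted p under 0.05, and 0 adjusted and 622 unadjusted by DESeq2).

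**Figure D3:**
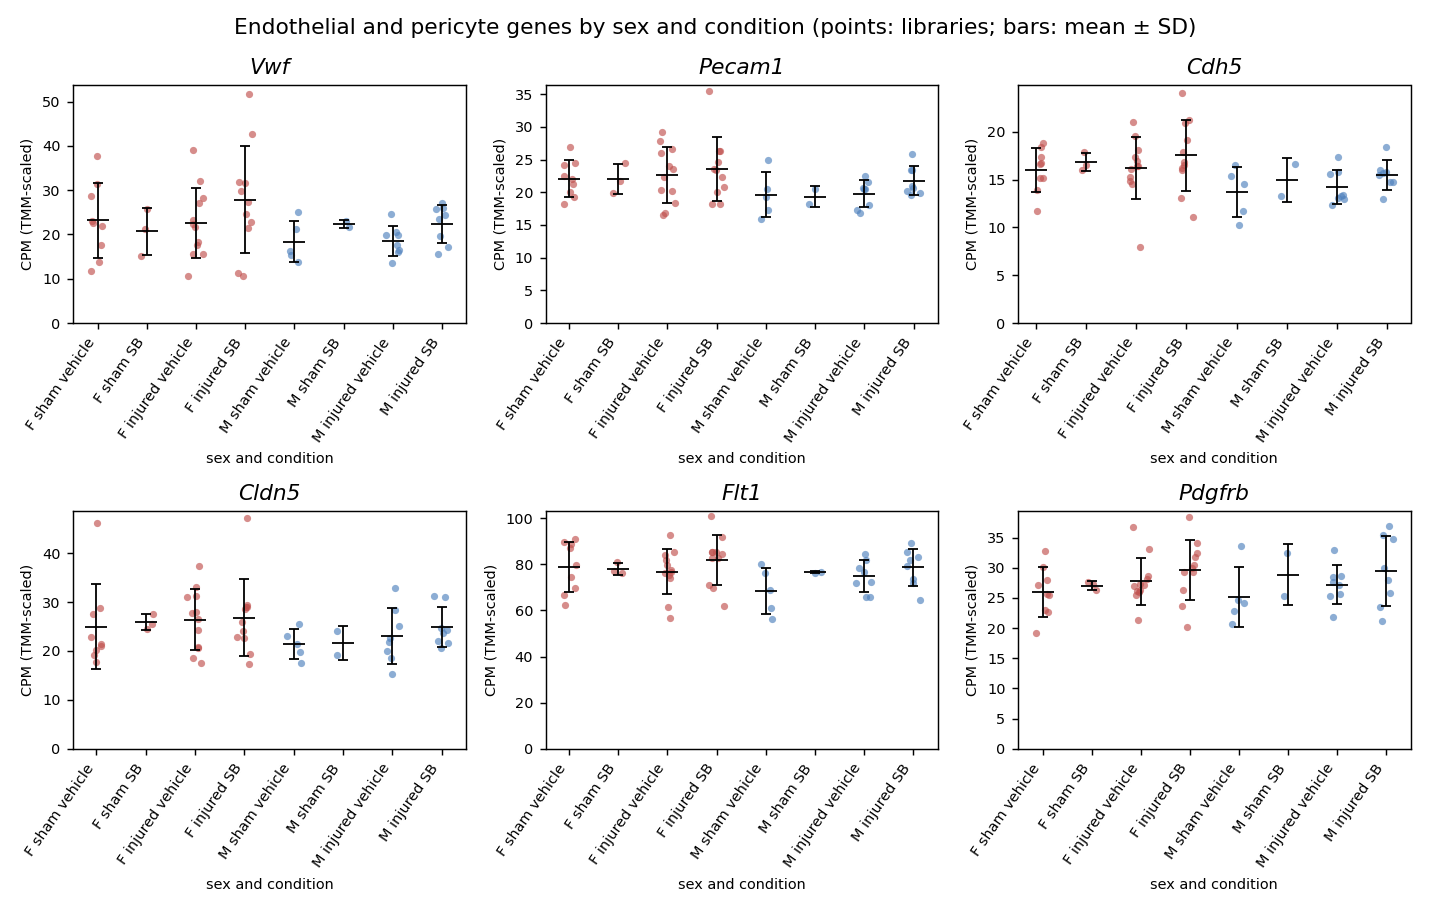
Level of each gene (vertical axis, TMM-scaled CPM, starting at 0) by sex and condition (horizontal axis), females in red and males in blue. Points are libraries and bars are the mean ± SD; every condition overlaps the others for every gene, with Vwf widest in injured SB females (10.7 to 51.7 CPM).

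Vascular lists showed 0 called genes after injury as well. The genes of smallest p per list, by the rule of naming, were led by the laminin gene Lama5 at -0.30 ± 0.13 (SE, unadjusted p = 0.0271). The others, all with an unadjusted p of 0.0940 or more, were Adgrf5, Ly6a and Pltp for identity, Slc3a2, Slc2a1 and Cldn12 for the barrier, Adgra2, Apcdd1 and Axin2 for Wnt, and Rgs5, Mcam and Cspg4 for pericytes. They further included Pdgfa, Pdgfb and Vegfb for growth factors, F3, Ackr1 and Vcam1 for activation, Lamc1 and Sparc for the basement membrane, and Notch1, Efnb2 and Unc5b for Notch. Medians of the lists lay between -0.073 for activation genes, of which 5 of 5 were lower in sign, and 0.022 for Notch genes. The median of all genes was -0.00067, and 49.4% of them were higher in sign.

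SB was compared with vehicle in injured mice to ask how the p38 inhibitor altered the chronic state. Vwf was the member with the largest estimate. It ran from 10.7 to 51.7 CPM with a median of 24.7 in the 19 libraries of injured mice given SB, and from 10.6 to 39.0 CPM with a median of 19.8 in the 20 given vehicle. The means were 25.5 ± 9.80 and 21.0 ± 6.73 CPM (SD), and the groups overlapped. The log2 fold change of Vwf was 0.25 ± 0.11 (SE, 95% interval 0.024 to 0.47). Its unadjusted p was 0.0307 and its adjusted p 0.689 (edgeR), so it did not pass.

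Within cohorts the Vwf mean was higher with SB in 6 of 8, and the spread between cohorts was wide. The log2 differences were -0.20 in F1, -0.22 in F2, 0.54 in F3 and 0.79 in F4, where 1 injured library had SB. In males they were 0.11 in M1, 0.52 in M2, 0.43 in M3 and 0.0086 in M4. Each of these values rests on 1 to 5 libraries per arm and was not tested.

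The endothelial members Pecam1, Cdh5, Cldn5 and Flt1 had SB fold changes of 0.10 ± 0.065 (SE), 0.12 ± 0.069, 0.073 ± 0.10 and 0.081 ± 0.055. The pericyte member Pdgfrb was at 0.095 ± 0.057. Their adjusted p ran from 0.725 to 0.906 (edgeR), and 0 of 6 members passed, as did 0% of all genes. All 6 estimates were positive, beside 52.2% of all genes, but here too the members covary and are not independent. Vwf was the 1 member with an unadjusted p under 0.05, beside 7.06% of all genes (680 genes by edgeR, 705 by DESeq2, which also called 0 after adjustment). The median of the 6 was 0.099, against 0.0034 over all genes. Without the 4 far libraries the estimate of Cldn5 fell to 0.017, that of Pdgfrb to 0.059 and that of Pecam1 to 0.068. Injured SB female 8, alone, held the highest value of Cldn5 (47.1 CPM), Pecam1 (35.4) and Pdgfrb (38.5) among all 58 libraries.

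**Figure D4:**
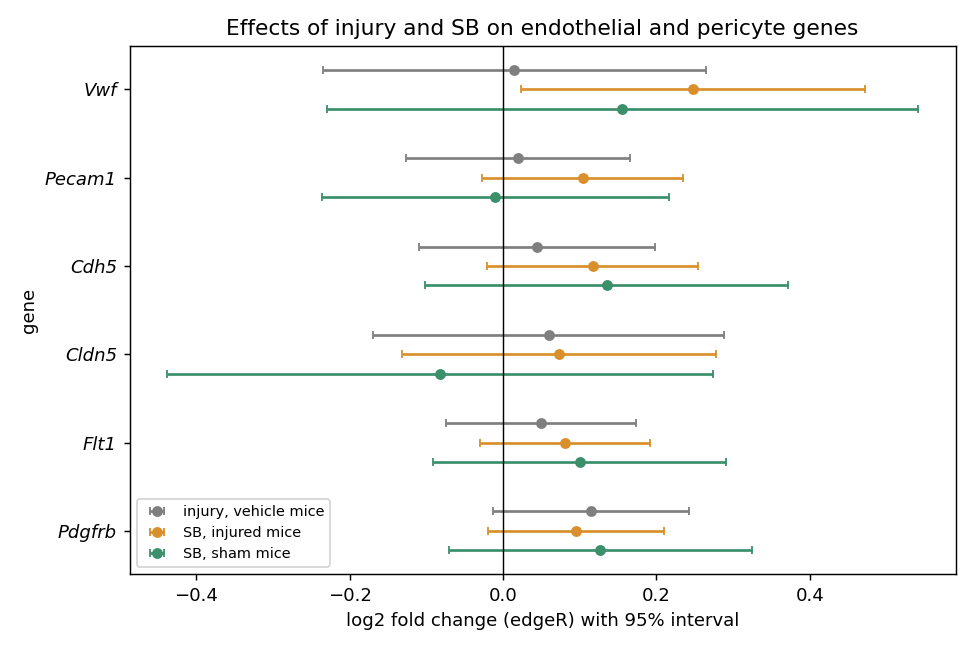
Log2 fold changes from edgeR (horizontal axis; points, with 95% intervals as bars) of each gene (rows) for injury in vehicle mice (grey), SB in injured mice (orange) and SB in sham mice (green). The interval of Vwf for SB in injured mice, 0.024 to 0.47, is the only one that leaves out 0, and its adjusted p is 0.689.

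Other markers differed in the same comparison. All 12 myelin genes were lower with SB, with a median log2 fold change of -0.35 and a summed level of 2592 to 9020 CPM against 5420 to 12864 CPM in injured vehicle mice. The 4 striatal genes were higher (median 0.31), the 3 perivascular fibroblast genes were higher (median 0.15), and 8 of 9 microglial genes were lower (median -0.050). None of these genes passed the threshold. Over 9542 genes the SB fold change followed exonic length with a Spearman rho of 0.337, at 0.441 in females and 0.0805 in males. The injury fold change followed it with 0.457, at 0.0032 in females and 0.465 in males. Their part in the estimates of the members was not tested.

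None of the genes in the vascular lists passed under SB after injury, and the smallest adjusted p over all genes was 0.655. In the basement membrane 12 of 15 were higher in sign, with the genes of smallest p being Lamb2 (0.20 ± 0.056, SE, unadjusted p = 7.52e-04), Fn1 (0.31 ± 0.089) and Lama5 (0.41 ± 0.12). Lama5 had been the gene of smallest p and negative sign after injury. Both comparisons share the injured vehicle mice. Of the identity genes 13 of 14 were higher in sign (median 0.087), with Eng at 0.21 ± 0.086, Adgrf5 at 0.12 ± 0.061 and Adgrl4 at 0.11 ± 0.068. Of the barrier genes 12 of 17 were higher, with Cavin1 at 0.25 ± 0.074, Abcc4 at 0.21 ± 0.068 and Abcb1a at 0.12 ± 0.070. Of all genes 52.2% were higher in sign. Genes of a list were measured in the same libraries, so the signs within a list are not independent outcomes.

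In the barrier Wnt list Adgra2 was at 0.23 ± 0.075 (SE), Reck at 0.17 ± 0.075 and the norrin co-receptor gene Tspan12 at -0.13 ± 0.061, with 3 of 6 higher. Among pericyte genes Zic1 was at 0.42 ± 0.12, Mcam at -0.26 ± 0.11 and the proteoglycan gene Cspg4 at 0.12 ± 0.071. The activation genes Thbd, Vcam1 and Plat were at 0.30 ± 0.12, 0.096 ± 0.075 and 0.046 ± 0.046. The growth factor genes Apln, Epas1 and Pdgfa were at -0.099 ± 0.065, 0.057 ± 0.052 and -0.068 ± 0.065, and the Notch genes Unc5b, Jag2 and Efnb2 at -0.17 ± 0.12, 0.098 ± 0.073 and -0.050 ± 0.046. The unadjusted p of these 6 genes was 0.133 or more.

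The sexes gave like SB estimates for Vwf, 0.23 ± 0.14 (SE) in injured females and 0.26 ± 0.17 in injured males. Pecam1 was at 0.069 ± 0.083 and 0.14 ± 0.10, and Cldn5 at 0.033 ± 0.13 and 0.11 ± 0.16. Cdh5, Flt1 and Pdgfrb lay between 0.074 and 0.12 in either sex. In neither sex did a member or any gene pass (edgeR, with 695 genes in females and 181 in males at an unadjusted p under 0.05, and 0 adjusted by DESeq2). By edgeR 0 members and 0 genes differed in the SB effect between the sexes (88 genes at an unadjusted p under 0.05, and 0 adjusted and 90 unadjusted by DESeq2). Without injured SB female 8 the Cldn5 estimate in females was -0.093.

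In sham mice, where 5 libraries had SB and 14 vehicle, no member passed. Vwf ran from 15.0 to 25.8 CPM with a median of 21.7 in sham SB mice, within the range of sham vehicle mice. The log2 fold changes were 0.16 ± 0.19 (SE) for Vwf, 0.14 ± 0.12 for Cdh5, 0.13 ± 0.098 for Pdgfrb, 0.10 ± 0.095 for Flt1, -0.010 ± 0.11 for Pecam1 and -0.082 ± 0.18 for Cldn5. By edgeR 0% of all genes passed, 676 genes (7.02%) and 0 members had an unadjusted p under 0.05, and DESeq2 counted 0 and 703. The injury by SB interaction called 0 of 6 members and 0% of all genes (133 genes, 1.38%, and 0 members unadjusted by edgeR, 0 and 144 genes by DESeq2). Its estimates ran from -0.032 ± 0.11 for Pdgfrb to 0.16 ± 0.20 for Cldn5.

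The members tended to rise and fall together between libraries, Cldn5 the least closely with Vwf and Cdh5. After the effects of group and cohort were removed, all 15 pairs had a positive Pearson r of log2 CPM over the 58 libraries, with a median of 0.46. All pairs of genes in the table had a median of -0.0036, and 49.6% were positive. The highest value, 0.67, joined Flt1 of the endothelium to Pdgfrb of the pericyte, and it was 0.66 or 0.69 without the 2 libraries farthest from the median of either gene. The lowest, 0.22, joined Cdh5 and Cldn5. Before that removal Vwf and Cdh5 stood at 0.69, against 0.41 after it. These values describe the libraries, which share depth and dissection. The 95th percentile of all pairs was 0.57, above the median of the member pairs. In likeness to Cldn5 the other members ranked from 71 (Pdgfrb) to 2884 (Cdh5) among 9635 genes.

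**Figure D5:**
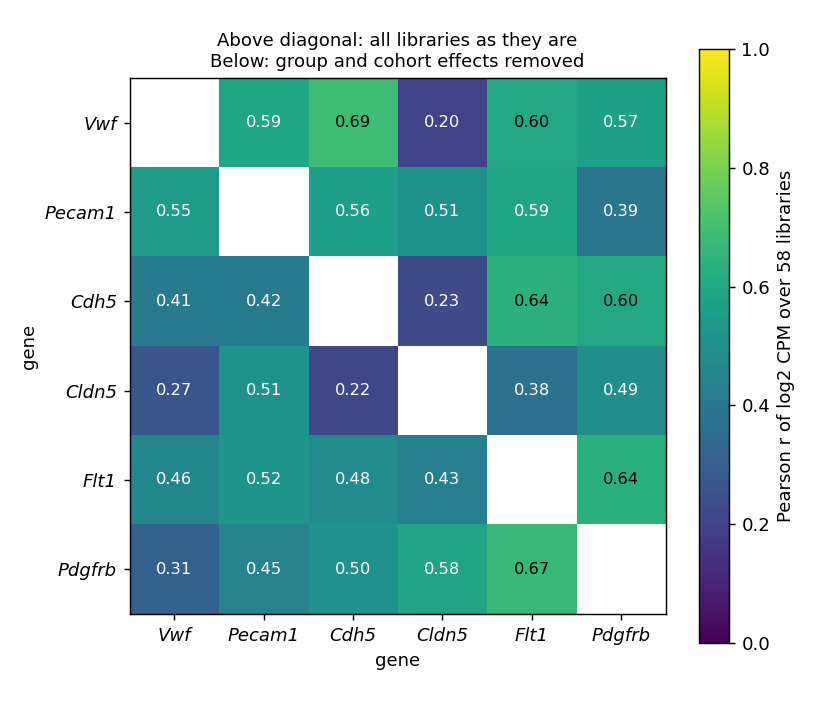
Pearson r of log2 CPM for each pair of genes over the 58 libraries (colour and printed value), above the diagonal as measured and below it after removal of group and cohort effects. All 15 pairs are positive on either side, from 0.22 for Cdh5 with Cldn5 to 0.67 for Flt1 with Pdgfrb below the diagonal.

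For each member the 5 genes of the table with the highest r were listed by rule, over the same 58 libraries. Vwf was most like fibronectin (Fn1, r = 0.74), then Ahnak (0.62), Ptprb (0.60), Pecam1 (0.55) and Slc13a3 (0.52). Pecam1 was most like Tek (0.58), Cp, Vwf, Cxcl12 and Ptprb. Cdh5 was most like Cxcl12 (0.56), Epas1, Ptprb, Stau1 and Axl. Flt1 had the closest companions of its kind, Cxcl12 (0.81), Adgrf5 (0.79) and Ptprb (0.76), followed by Pdgfrb and Tek. Ptprb thus stood in 4 of the 6 lists and Cxcl12 in 3.

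Cldn5 and Pdgfrb had other companions. Cldn5 was most like vitronectin (Vtn, 0.76), Egfl7 (0.73) and Lin7b (0.71), with Fastk and Reep2 at 0.67 each. Without its 2 farthest libraries these were 0.63, 0.62 and 0.54 for the first 3. Pdgfrb was most like Flt1 (0.67), Sox12 (0.62), Dnm2 (0.61), Mast2 (0.60) and Dvl3 (0.60). Likeness followed transcript length: over 9542 genes the Spearman rho of a gene's r with its exonic length was 0.58 for Flt1, 0.50 for Cdh5 and 0.44 for Vwf, but -0.50 for Cldn5. The 50 genes most like Flt1 had a median exonic length of 8643 bases and the 50 most like Cldn5 one of 2867, against 5032.5 over all genes. For Pecam1 and Pdgfrb rho was 0.15 and 0.066.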

How the data were processed

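Raw read counts per gene were deposited by the authors in 1 table of 9636 genes by 58 libraries, with no normalization. The submitters' processing notes list STAR, featureCounts, DESeq2 and the build GRCm39 (mm39). Versions, annotation, strand setting and the rule that left genes out were not given in these sources, so overlapping genes could share counts. Per the labels' protocols RNA was selected for poly(A) and libraries were directional. The smallest count in the table is 101, so genes of low count are missing, and the totals (28316280 to 49158277) cover the listed genes only.

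The count test was edgeR 4.0.16 in R 4.3.3 (TMM, robust quasi-likelihood fit, two-sided, Benjamini-Hochberg over all 9636 genes at 0.05). The model held 8 groups of sex by condition and the cohort within sex as a fixed effect, with 14 coefficients and 44 residual degrees of freedom. A comparison over both sexes averages the contrasts of females and males. Cohorts were compared by a test of 3 coefficients in each sex; the sexes were compared over 8 cohort means with limma 3.58.1. Levels are CPM after TMM scaling, log2 CPM used a prior count of 2, and intervals are at 95%. Exonic lengths came from GENCODE vM21 and covered 9542 genes. Alternatives were DESeq2 1.42.0, RLE size factors, a mean count of at least 1000, a prior count of 0.5, no cohort, a replicate block, sexes not separated, sham vehicle libraries only (for the sex comparison), and each library left out. The alternatives without cohort F2 and without 4 libraries over 3.5 median absolute deviations out on a principal component were added after seeing the data. In simulated counts the cohort test in females found 97% of genes changed 1.5-fold and 56% of those changed 1.25-fold, with 4 false calls beside 153 true ones. The injury test found 100% and 92%, with 15 false calls beside 192 true ones (7.25% of its calls). The simulation drew genes independently, changed 100 genes per fold size and test, and held no other difference between female cohorts or conditions. In the data genes covary and 50.0% differed between female cohorts, so these shares do not give the power for the members. All library pairs within groups differed beyond sampling noise (chi-square per degree of freedom of 9.83 or more).

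The members and the 18 gene lists were chosen with earlier results of these data known. Named besides the members were all list genes past the threshold and, for injury and for SB in injured mice, the 3 of smallest unadjusted p in each vascular list of at least 4 measured genes. Lists were described by counts and medians only.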

Additional observations from a re-analysis of the deposited data

Results flagged for a closer look

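Cldn5 in sham vehicle females held 1 value far above the rest of its group: replicate 7, of cohort F3, had 46.2 CPM, the next highest library 28.7 CPM and the lowest 17.8 CPM. This was the only such value among the 24 groups tested (6 genes by the groups of 4 to 10 libraries), and chance alone would flag about 1 group in 20. The same library was 1 of the 4 that lay far out on a principal component. Without it the Cldn5 range between female cohorts passed the threshold, but without all 4 it did not.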

How the results depend on the processing

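The calls for Vwf and Cdh5 between female cohorts held with DESeq2, RLE size factors, sexes not separated, the replicate block and each library left out. Both fell below a mean count of 1000 and were not tested under that filter, which left 1 member and 7 endothelial identity genes past the threshold in females and 0 identity genes in males. Replicate numbers did not pair the libraries: of 62 same-numbered pairs 21 correlated above 0.1 (median 5.0e-04). With the replicate block 2602 genes and 2 members passed in females and, in males, 90 genes, 0 members and 1 identity gene. In females the block lost the calls of Adgrl4, Esam, Abcc4, Abcg2, Insr, Tjp1, Reck, Atp13a5, Vtn and Myl9. It also lost those of Vcam1, Lama4, Lama5, Lamc1, Pdgfa, Pdgfb, Pdgfra, Rbpj and Unc5b. Without the 4 far libraries the female calls of Adgrl4, Insr, Jam2 and Unc5b were lost, and with the filter on mean count that of Lrp8. Without cohort F2, 0 members and 7 identity genes passed in females. In males DESeq2 counted 613 genes, and 1258 genes and 2 members passed without the 4 far libraries. Over single libraries left out the male count ran from 28 to 769, members from 0 to 1 and identity genes from 0 to 2; the lowest count came without sham vehicle male 1. Members in females ran from 3 to 5.

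No injury or SB call was made under any alternative, so signs below concern estimates near 0 (log2). Without the cohort, injury gave Vwf -0.0067 (females -0.031, males 0.017) and Pecam1 in males 0.012, SB in sham mice gave Cldn5 0.032, and the interaction gave Cdh5 0.018 and Flt1 0.0087. With the replicate block, injury gave Vwf -0.040 (females -0.059) and Pecam1 -0.015, and the interaction Cdh5 0.030 and Flt1 0.0067. Without cohort F2 the interaction gave Cdh5 0.073, Flt1 0.053 and Pdgfrb 0.019. Without the 4 far libraries injury gave Pdgfa 0.031 and Vegfb 0.075, SB in sham mice Cldn5 0.024, SB in injured females Pecam1 -0.00074 and Cldn5 -0.077, and the interaction Cldn5 -0.0064 and Flt1 0.013. With sexes not separated SB in sham mice gave Pecam1 0.0040. Sham vehicle libraries alone gave a male minus female difference of 0.019 for Pdgfrb.

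Over single libraries left out, injury ranged from -0.058 to 0.087 for Vwf (females -0.059 to 0.11, males -0.15 to 0.14), -0.0059 to 0.071 for Pecam1 (females -0.0034 to 0.095, males -0.052 to 0.096) and -0.014 to 0.078 for Cdh5 (females -0.0021 to 0.081, males -0.064 to 0.12). In females it ranged from -0.019 to 0.25 for Cldn5 and from -0.057 to 0.018 for Flt1, and in males from -0.0026 to 0.12 for Cldn5. SB in injured females ranged from -0.093 to 0.11 for Cldn5 and from -1.9e-05 to 0.11 for Pecam1, and SB in sham mice from -0.086 to 0.061 for Pecam1. The interaction ranged from -0.083 to 0.070 for Cdh5, -0.049 to 0.021 for Flt1 and -0.076 to 0.011 for Pdgfrb. With single cohorts left out, male minus female ranged from -0.35 to 0.057 for Vwf and from -0.10 to 0.063 for Pdgfrb. The cause of these changes was not tested. For each member counting error at its lowest count (2.28% to 5.85%) was below its biological coefficient of variation (11.8% to 23.4%).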
